A study of Danio rerio with 6 samples.

Results

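The receptors for GABA, glycine and glutamate were read as a gene group in RNA-seq of 48 hpf (hours post-fertilization) whole zebrafish embryos, in homozygous dnajc21 mutants and in wildtype embryos. The members are table rows chosen by their symbol in small letters, and they number 73 of 35197 rows. Each symbol begins with gabr, gabbr, glra or glrb, or with gria, grin, grik, grid or grm and a subunit number. Of the 73 members, 71 are receptor subunits and 2, grid2ipa and grid2ipb, encode proteins that bind a delta glutamate receptor. The mutant group is 3 libraries from embryos homozygous for a dnajc21 lesion that the labels do not describe, and the wildtype group is 3 libraries, headed casper in the count table after a strain that lacks most pigment. Both groups were untreated, 30 to 50 whole embryos were pooled for each library, and the labels give neither the background of the mutants nor the clutches. The p-values therefore rest on the spread among 6 libraries, which may be partly technical. As background, Dnajc21 is among the J-domain co-chaperones and acts late in the assembly of the large ribosomal subunit.

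GABA-A and glycine receptors are chloride channels built from 5 subunits. In young neurons internal chloride is high, so both can depolarize the cell, and later they carry fast inhibition. AMPA, kainate and NMDA receptors are cation channels opened by glutamate and built from 4 subunits. GABA-B and metabotropic glutamate receptors act through G proteins. At this stage the zebrafish spinal cord and hindbrain already drive touch responses and swimming with glycine and glutamate, while the retina is still differentiating. Zebrafish kept many receptor genes in duplicate, written with a final a or b.

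Of the member rows, 4 passed the test, and 3 of these are receptor subunits. The GABA-A subunit row gabrz was 5.03-fold higher in mutants, the GABA-A beta subunit row gabrb1 was 4.48-fold lower, grid2ipb was 2.73-fold higher and the metabotropic glutamate receptor row grm4 was 1.40-fold lower. The uncalled rows reached log2 fold changes of -0.59 and 0.60, so the call of grm4 does not set it apart by size. Of 55 rows that passed the filter on low counts, these 4 were called (2 higher, 2 lower), or 7.27%, against 11.7% of all 20229 genes tested (edgeR's quasi-likelihood test, adjusted over all genes by Benjamini-Hochberg, at 0.05). Among all tested genes 5.85% were called higher and 5.87% lower, and within the range of mean levels of the tested members 10.5% were called. The groups did not overlap in 10 of the 55 rows, or 18.2%, against 30.5% of all tested genes. Mutants lay above in 4 of these rows (gabrz, glra3, grid2ipb and grik1a; 15.1% of all tested genes) and below in 6 (gabrb1, glrbb, grid1b, grik4, grin1a and grm4; 15.4% of all tested genes). At an unadjusted p under 0.05 there were 7 members, or 12.7%, against 25.5% of all tested genes. The median standard error of the members' log2 fold changes was 0.21, against 0.13 for all tested genes. Levels are given in CPM, the count scaled to the TMM-adjusted library total. The median absolute log2 fold change was 0.167 for the tested members and 0.170 for all tested genes. The median log2 fold change of mutant over wildtype was -0.04 for the tested members and -0.006 for all tested genes.

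**Figure D1:**
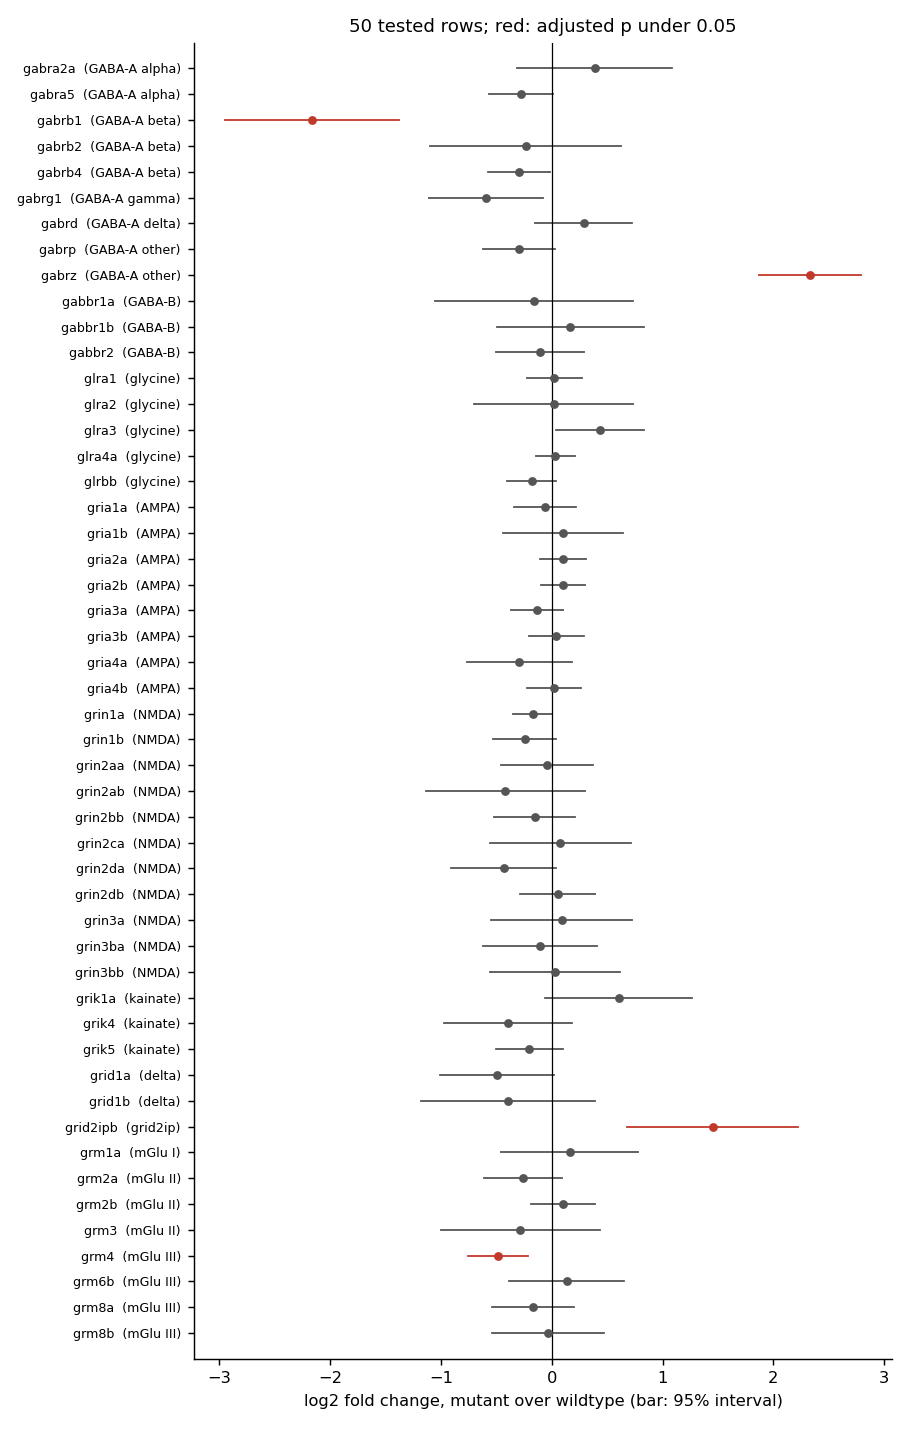
Log2 fold change of mutant over wildtype (horizontal axis) for 50 of the 55 tested rows, listed by receptor family, with 95% intervals as bars and called rows in red. gabrz (2.33) and gabrb1 (-2.16) lie farthest from 0, and the drawn rows that were not called lie between -0.59 and 0.60.

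The libraries held 8600951 to 11798543 counts, and 68 to 71 of the 73 member rows were detected in each. The limit that a count of 0 sets, 3 counts, came to 0.254 CPM in the deepest library and 0.349 CPM in the shallowest, for counting error alone. The dnajc21 transcript had 16.9, 19.7 and 17.3 CPM in mutant replicates 1 to 3, against 22.6, 24.9 and 30.9 CPM in wildtype replicates 1 to 3, and was lower in every mutant library (-0.55 on the log2 scale, SE 0.12, edgeR adjusted p = 0.00492). In whole embryos, fewer cells of a type and less RNA per cell cannot be told apart. Of 25 tested neuron markers 0 were called higher and 6 lower, against 5.85% and 5.87% of all tested genes. Their log2 fold changes centred on -0.07, and 9 were positive. The summed level of the markers was 3289 to 3401 CPM in mutants, against 3459 to 3705 CPM in wildtype. Much of this gap lay in the tubulin rows tuba1c (mean 760 CPM in mutants, 882 CPM in wildtype) and tubb5 (619 and 708 CPM). The tuba1c row had non-whole counts in all 6 libraries. The lower markers were snap25b (-0.46), gap43 (-0.36), neflb, elavl4, tuba1c and tubb5, while elavl3 had 0.07 (adjusted p = 0.487). The call of neflb was lost in each of the 6 fits with a library left out (adjusted p of 0.051 to 0.128). The calls of tuba1c, tubb5 and elavl4 were kept in 1, 2 and 2 of these fits, and those of gap43 and snap25b in 5 and 6. In all, 1 neuron marker was called without mutant replicate 2 and 2 without mutant replicate 1, mutant replicate 3 or wildtype replicate 2. None of the neuron marker rows was at 0, and their part in the receptor values was not tested.

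Among GABA-A receptor subunits, gabrz was the row with the highest fold change. It had 11.8, 11.9 and 10.4 CPM in mutant replicates 1 to 3, against 1.17, 3.02 and 2.39 CPM in wildtype replicates 1 to 3. All 3 mutant libraries lay above all 3 wildtype libraries, and the lowest mutant value was over the highest wildtype value by more than the range within either group. The log2 fold change was 2.33 (SE 0.22, 95% interval 1.87 to 2.79, edgeR adjusted p = 1.89e-06). In counts, the mutant libraries held 140, 116 and 111 and the wildtype libraries 10, 31 and 26.03. A count that is not whole, as in wildtype replicate 3, arises where reads are shared with another row, and this was the case in 1 of 6 libraries. The row was called under each of 17 other settings, with log2 fold changes of 2.07 to 2.61. Of the summed CPM of all 22 GABA-A rows, gabrz took 13.5% ± 0.753 in mutants and 2.54% ± 1.04 in wildtype (SD, n = 3 each); these shares are not corrected for transcript length.

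Beta subunits contribute to the GABA binding site, and 4 of 5 beta rows were tested. The gabrb1 row had 0.927, 0.614 and 0.374 CPM in mutant replicates 1 to 3, against 2.22, 3.02 and 3.50 CPM in wildtype replicates 1 to 3. The groups did not overlap, and the log2 fold change was -2.16 (SE 0.37, 95% interval -2.95 to -1.38, edgeR adjusted p = 0.000903). The counts were small, 11, 6 and 4 in mutants and 19, 31 and 38 in wildtype, and the row passed the filter on its wildtype libraries alone, so being tested already favoured a lower value in mutants. Its call was kept in each of 17 other settings, with log2 fold changes from -2.55 to -1.89. The other beta rows did not pass. The gabrb4 row had 16.2, 15.97 and 13.7 CPM in mutants, against 21.1, 20.6 and 14.8 CPM in wildtype, where replicate 3 lay within the mutant range (log2 fold change -0.29, adjusted p = 0.177). Without wildtype replicate 3 gabrb4 was called (-0.44, adjusted p = 0.0263). For gabrb2 the value was -0.24, with an interval of -1.10 to 0.63.

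**Figure D2:**
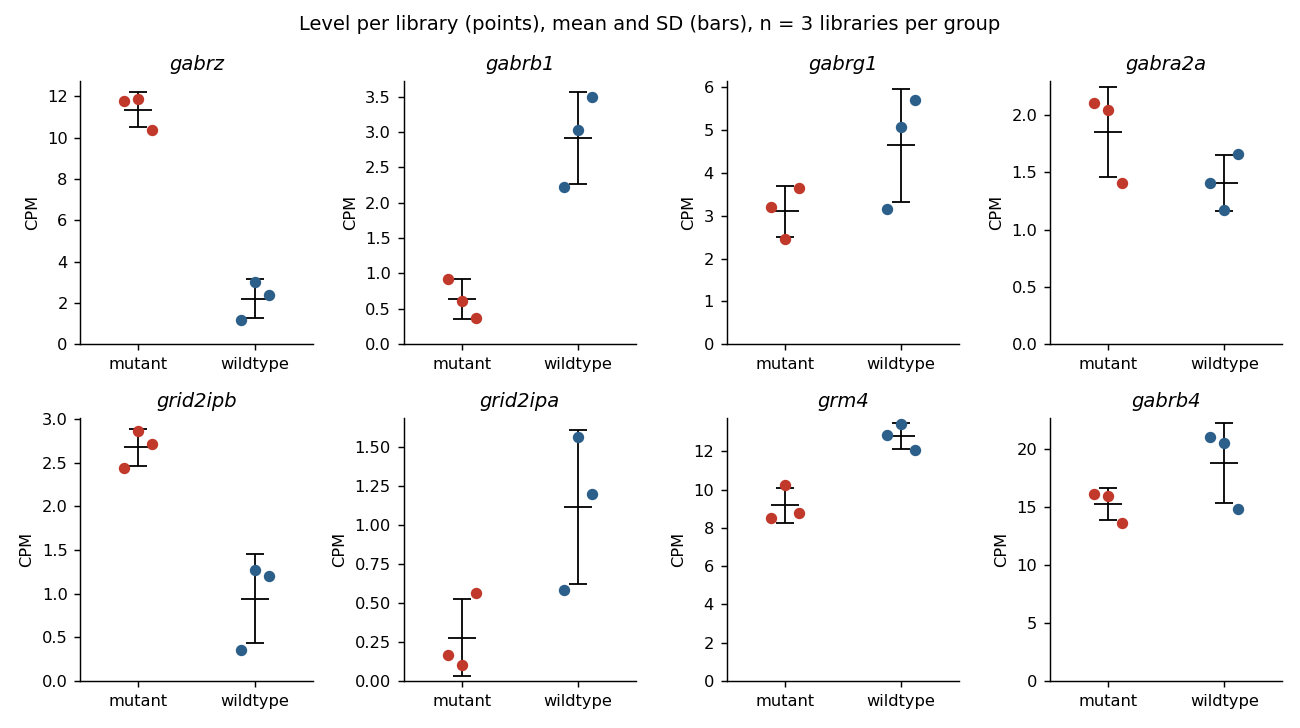
CPM of 8 member rows in each library (points), with the mean and SD of 3 libraries (bars), mutant left and wildtype right, each panel on its own axis from 0. Mutant libraries lie above all wildtype libraries for gabrz and grid2ipb and below them for gabrb1, grid2ipa and grm4, while the groups overlap for gabrg1, gabra2a and gabrb4.

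Alpha and gamma subunits complete the common synaptic GABA-A receptor, and gamma subunits anchor it at the synapse. Of 3 tested alpha rows and 2 gamma rows 0 were called by edgeR, DESeq2 or limma-voom (1 of them, gabrg1, at an unadjusted p under 0.05 in edgeR). The gabrg1 row had 3.20, 2.46 and 3.65 CPM in mutants, against 3.16, 5.07 and 5.71 CPM in wildtype. Wildtype replicate 1 lay among the mutants. The log2 fold change was -0.59 (SE 0.24, adjusted p = 0.129), and without wildtype replicate 1 it was -0.79 (adjusted p = 0.0263). Of the alpha rows, gabra5 had 9.52, 12.3 and 9.82 CPM in mutants and 12.3, 14.3 and 11.6 CPM in wildtype (log2 fold change -0.28, adjusted p = 0.213). For gabra2a the value was 0.39, with an interval of -0.31 to 1.09.

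Delta subunits belong to receptors outside the synapse, and gabrd had 4.38, 5.22 and 4.96 CPM in mutants, against 4.45, 4.48 and 3.04 CPM in wildtype (log2 fold change 0.29, adjusted p = 0.425). The pi subunit row gabrp averaged 8.05 ± 1.35 CPM in mutants and 9.98 ± 1.32 CPM in wildtype (log2 fold change -0.30, adjusted p = 0.248). The groups overlapped in both rows.

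Summed over all 22 rows, GABA-A subunits held 86.8, 83.7 and 81.8 CPM in mutants, against 86.6, 92.9 and 79.4 CPM in wildtype. The totals overlapped. With gabrz left out, a choice made after its values were seen, the other 21 rows summed to 75.0, 71.9 and 71.4 CPM in mutants and 85.4, 89.9 and 77.0 CPM in wildtype, and then every mutant library lay below every wildtype library. This sum kept the called row gabrb1. Mutant replicate 1 and wildtype replicate 3 differed less in the sum than in gabrb1 alone (0.927 and 3.50 CPM). The lack of overlap in this sum thus depended on gabrb1. Most of the difference between the mean sums (72.8 CPM in mutants, 84.1 CPM in wildtype) lay in other rows, as gabrb1 averaged 0.638 and 2.91 CPM. Of the 12 tested rows in the sum, 5 had a positive log2 fold change and gabrb1 alone was called. The sum therefore does not show a fall shared by all of these rows. The alpha rows summed to 18.0, 19.9 and 18.7 CPM in mutants, against 20.2, 23.3 and 20.7 CPM in wildtype, below in every mutant library. Adding GABRA2, an alpha subunit row outside the members because it is written in capitals, made these sums overlap (21.1, 23.3 and 22.2 CPM in mutants, 23.1, 26.8 and 23.2 CPM in wildtype). The beta rows summed to 21.4, 20.7 and 18.4 CPM in mutants and 28.1, 27.8 and 22.9 CPM in wildtype, also below in every mutant library, and without gabrb1 the beta sums overlapped. The GABA-B rows gabbr1a, gabbr1b and gabbr2 encode the subunits of the slow, G protein-coupled GABA receptor, and none was called by edgeR, DESeq2 or limma-voom (0 at an unadjusted p under 0.05 in edgeR). Their sums were 15.9, 14.1 and 13.6 CPM in mutants, against 10.1, 17.3 and 15.3 CPM in wildtype. For gabbr2 the log2 fold change was -0.11 (95% interval -0.51 to 0.29, adjusted p = 0.774).

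Glycine receptors carry much of the fast inhibition of the spinal cord. The alpha subunits bind glycine, and the beta subunit ties the channel to the scaffold gephyrin. None of 5 tested rows was called by edgeR, DESeq2 or limma-voom (1, glra3, at an unadjusted p under 0.05 in edgeR). The glra3 row had 6.66, 5.12 and 5.24 CPM in mutants, against 3.98, 4.09 and 4.51 CPM in wildtype. The groups did not overlap, and the log2 fold change was 0.44 (SE 0.19, adjusted p = 0.153). The beta subunit row glrbb had 17.0, 15.5 and 17.0 CPM in mutants and 19.3, 17.5 and 19.4 CPM in wildtype, also without overlap (-0.18, SE 0.10, adjusted p = 0.295). The alpha subunit row glra4a averaged 31.9 ± 0.955 CPM in mutants and 31.1 ± 2.38 CPM in wildtype (SD, n = 3 each). Its interval of -0.15 to 0.21 was among the narrowest of the members. The glra1 row had an interval of -0.22 to 0.27. Summed over 7 rows the family held 77.5, 71.2 and 74.4 CPM in mutants, against 73.1, 76.9 and 72.0 CPM in wildtype.

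AMPA receptors carry fast glutamate transmission, and the gria2 subunit decides how much calcium they pass. All 8 AMPA rows were tested and 0 were called by edgeR, DESeq2 or limma-voom (0 at an unadjusted p under 0.05 in edgeR), with log2 fold changes between -0.29 and 0.10. The gria2a row had 49.3, 45.2 and 45.4 CPM in mutants, against 48.0, 36.0 and 46.7 CPM in wildtype. The gria2b row had 25.4, 26.8 and 23.3 CPM in mutants and 23.8, 24.8 and 21.8 CPM in wildtype. Mutant and wildtype libraries overlapped in both rows, and the log2 fold changes of both copies were 0.10, with intervals of -0.10 to 0.31 and -0.10 to 0.30. The lowest value of the family was that of gria4a (-0.29, SE 0.22, adjusted p = 0.454). Summed over the family, mutants held 136, 134 and 128 CPM and wildtype 132, 128 and 129 CPM.

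**Figure D3:**
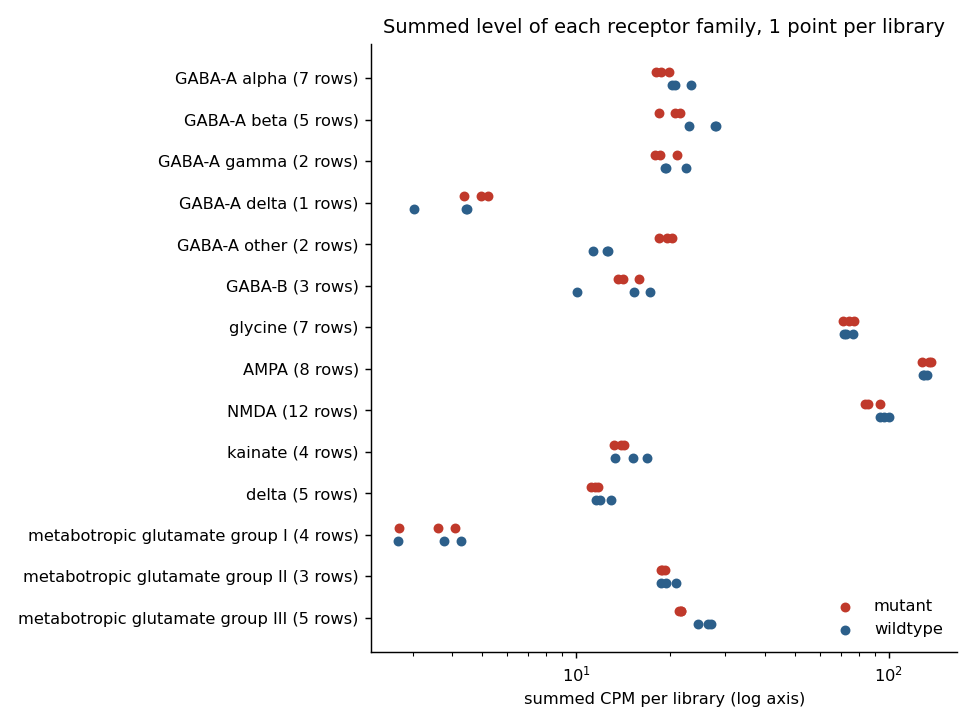
Summed CPM of 14 receptor families in each library (log axis), with mutant points above wildtype points in each row. The sums of the 8 AMPA rows (128 to 136 CPM in mutants, 128 to 132 CPM in wildtype) and of the 7 glycine receptor rows overlap between groups. The sum of the GABA-A rows gabrp and gabrz is higher in every mutant library through gabrz, while gabrp alone has a log2 fold change of -0.30. The GABA-A alpha, GABA-A beta, NMDA and metabotropic group III sums are lower in every mutant library. The alpha and NMDA sums overlap once GABRA2 and GRIN2B are added, and the beta sums overlap without gabrb1. The group III sum includes the called row grm4. The delta sum of 5 rows includes grid2ipa and the called row grid2ipb, which are not receptor subunits. The 3 delta receptor rows alone average 8.51 CPM in mutants and 10.1 CPM in wildtype, and their sums overlap.

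NMDA receptors need the grin1 subunit in every channel, together with grin2 or grin3 subunits. Of 11 tested rows 0 were called by edgeR, DESeq2 or limma-voom (0 at an unadjusted p under 0.05 in edgeR), and 7 had a negative log2 fold change. The grin1a row had 41.7, 37.9 and 41.6 CPM in mutants, against 42.9, 50.2 and 43.4 CPM in wildtype. Every mutant value lay below every wildtype value, with a small gap, and the log2 fold change was -0.17 (SE 0.08, adjusted p = 0.205). Its copy grin1b had -0.24 (SE 0.13, adjusted p = 0.272). Summed over all 12 NMDA rows, mutants held 93.5, 84.0 and 85.7 CPM and wildtype 93.9, 100.2 and 96.4 CPM, so the mutant sums lay below the wildtype sums by a margin that was narrow in mutant replicate 1. The ratio of the mean sums was 0.906. With GRIN2B added, an NMDA subunit row outside the members because it is written in capitals, the sums were 106, 96.7 and 97.1 CPM in mutants and 105.2, 111.0 and 105.1 CPM in wildtype, and the groups overlapped. Rows in capitals were added after their values were seen.

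Kainate receptors act on both sides of the synapse. None of 3 tested rows was called by edgeR, DESeq2 or limma-voom (0 at an unadjusted p under 0.05 in edgeR). The grik1a row, for a low-affinity subunit, had 2.11, 2.46 and 1.78 CPM in mutants, against 1.52, 1.17 and 1.47 CPM in wildtype (log2 fold change 0.60, SE 0.32, adjusted p = 0.248). The grik4 row, for a high-affinity subunit, had 1.60, 2.25 and 2.43 CPM in mutants, against 3.04, 2.53 and 2.67 CPM in wildtype (-0.39, SE 0.27, adjusted p = 0.401). Mutant and wildtype values lay apart in both rows, at 12 to 29 counts a library, and the intervals of -0.06 to 1.27 and -0.97 to 0.18 include 0.

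Delta receptors share the fold of glutamate receptors and organize synapses. The grid1a and grid1b rows had -0.50 and -0.40 (adjusted p = 0.212 and 0.555). The protein known as delphilin in mouse binds the tail of the delta receptor, and its zebrafish rows are grid2ipa and grid2ipb. The grid2ipb row had 2.44, 2.87 and 2.71 CPM in mutants, against 0.351, 1.27 and 1.197 CPM in wildtype. The 29, 28 and 29 counts of the mutant libraries all lay above the 3, 13 and 13 counts of the wildtype libraries, and the log2 fold change was 1.45 (SE 0.37, edgeR adjusted p = 0.0144). The filter asks for 3 libraries over its cutoff, and grid2ipb had 3 in mutants and 2 in wildtype. The wildtype libraries alone fell short, so the test needed a mutant library over the cutoff, which could favour a higher value in mutants. With mutant replicate 2 left out the adjusted p was 0.075, and with mutant replicate 3 left out 0.0649, so neither fit kept the call.

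The copy grid2ipa was too low for the filter. It had 0.169, 0.102 and 0.561 CPM in mutants, against 0.585, 1.56 and 1.197 CPM in wildtype, where the highest mutant value came close to the lowest wildtype value. In a fit with no filter its log2 fold change was -1.97 (SE 0.65, adjusted p = 0.0461). Of the summed CPM of both copies, grid2ipb took 91.0% ± 7.20 in mutants and 44.1% ± 6.28 in wildtype (SD, n = 3 each). Both rows held whole counts in every library.

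Metabotropic glutamate receptors of group III sit mostly on axon terminals and reduce release. The grm4 row had 8.51, 10.2 and 8.79 CPM in mutants, against 12.9, 13.5 and 12.06 CPM in wildtype. The groups did not overlap, and the log2 fold change was -0.48 (SE 0.13, 95% interval -0.75 to -0.21, edgeR adjusted p = 0.0201). The call ended with DESeq2 (adjusted p = 0.109) and without mutant replicate 1 (0.106), mutant replicate 3 (0.0921) or wildtype replicate 2 (0.0581). The other group III rows tested, grm6b, grm8a and grm8b, had 0.13, -0.17 and -0.04 and did not pass (adjusted p = 0.789, 0.605 and 0.950). The group III rows summed to 21.3, 21.6 and 21.7 CPM in mutants, against 26.3, 26.9 and 24.5 CPM in wildtype, below in every mutant library, also with the capital row GRM7 added. Of this sum grm4 took 42.6% ± 4.15 in mutants and 49.4% ± 0.567 in wildtype (SD, n = 3 each). The lower sum thus leaned on grm4 and does not show a fall across the group. The grm6 receptor is known from retinal bipolar cells, where it receives the photoreceptor signal. Of 10 tested photoreceptor markers 0 were higher and 4 lower, among them crx (log2 fold change -1.26) and nr2e3 (-0.76), with sums of 102 to 124 CPM in mutants, against 152 to 189 CPM in wildtype, and their part in the receptor values was not tested. The photoreceptor count was 2 without mutant replicate 2, mutant replicate 3 or wildtype replicate 1. Among all tested genes 5.87% were called lower.

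Of the groups I and II, which couple to different G proteins, no row was called by edgeR, DESeq2 or limma-voom (0 at an unadjusted p under 0.05 in edgeR). The group I row grm1a had 0.16 (95% interval -0.45 to 0.78, adjusted p = 0.786). The group II row grm2a had 6.32, 5.83 and 5.05 CPM in mutants, against 6.20, 7.02 and 7.37 CPM in wildtype (-0.26, SE 0.17, adjusted p = 0.350). Its copy grm2b had 0.10 (adjusted p = 0.706), on a row with non-whole counts in all 6 libraries whose values add up to whole numbers with those of rrp9. The gene rrp9 encodes a nucleolar protein and is the next protein-coding gene to grm2b in the RefSeq order, so the split of reads between these 2 rows is uncertain.

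Duplicate copies offered a view inside the families. There were 23 pairs of copies, and in 12 both copies were tested. In 5 of the 12 pairs the copies had log2 fold changes of the same sign, and 0 pairs had both copies called. The copies of gria2 had nearly the same value, at 0.10 each, and those of grin1 had -0.17 and -0.24. The copies of grin2d were farther apart, at -0.43 for grin2da and 0.06 for grin2db, where grin2da took 26.1% ± 5.75 of the pair in mutants and 33.0% ± 1.98 in wildtype (SD, n = 3 each). These differences between copies were not tested.

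**Figure D4:**
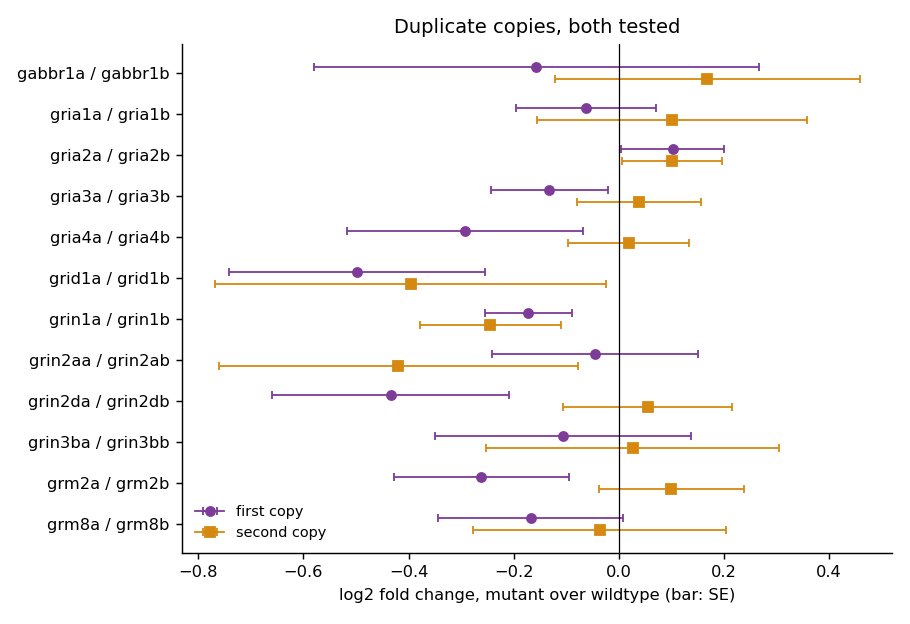
Log2 fold change of mutant over wildtype for the first copy (circles) and second copy (squares) of 12 duplicated receptor genes, with SE as bars. The copies lie between -0.50 (grid1a) and 0.17 (gabbr1b), and none was called.

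The remaining 18 rows were too low to test in the main fit. Their mean level was 0.0281 to 0.852 CPM, and 14 rows stayed under 10 counts in every library. They included gabra4, with 0 counts in all mutant libraries and 4 counts in wildtype, and grm1b, with 2 counts in mutants and 0 in wildtype, both too few to compare. Further rows in this set were gabra3, gabra6a and gabra6b, and grm5a, grm5b and grm6a. In the fit with no filter, grid2ipa was the only one of the 18 to pass.

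GABA-A subunit genes lie in clusters, and gene order was read from RefSeq assembly GRCz12tu, in which 70 of the 73 symbols were found. The rows gabra2a, gabrg1 and gabrb1 are consecutive protein-coding genes there, with log2 fold changes of 0.39, -0.59 and -2.16 in that order. The next gene after gabrb1, commd8, for a COMM-domain protein, was also lower, at 8.59 ± 0.788 CPM in mutants and 15.7 ± 1.72 CPM in wildtype (SD, n = 3 each). It had a log2 fold change of -0.86 with an SE of 0.13 (edgeR adjusted p = 0.000293), and the call held in each of 17 other settings. Of the 8 tested genes among the 5 on each side of gabrb1, 2 were called, commd8 and si:dkey-20i10.7. For all neighbour counts here, the share called among all tested genes was 11.7%. The gene si:dkey-20i10.7 had -0.50 (adjusted p = 0.0300), and of the 6 fits with a library left out only that without wildtype replicate 1 kept its call (adjusted p up to 0.147). DESeq2 lost it too. Around gabrz, 3 of 10 neighbours were tested and 0 were called by edgeR, with log2 fold changes between -0.08 and 0.03. Around grid2ipb 1 of 7 tested neighbours was called, and around grm4 2 of 7, both of these higher while grm4 was lower. The calls of mrtfab, beside grid2ipb, and of igfn1.1, beside grm4, were each lost in 3 of the 6 fits with a library left out (adjusted p up to 0.16 and 0.0953), which leaves 0 and 1 called neighbours there. Those fits left out mutant replicate 1, mutant replicate 2 or wildtype replicate 3, and DESeq2 also lost mrtfab. The neighbouring genes were looked up after the member values were known.

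**Figure D5:**
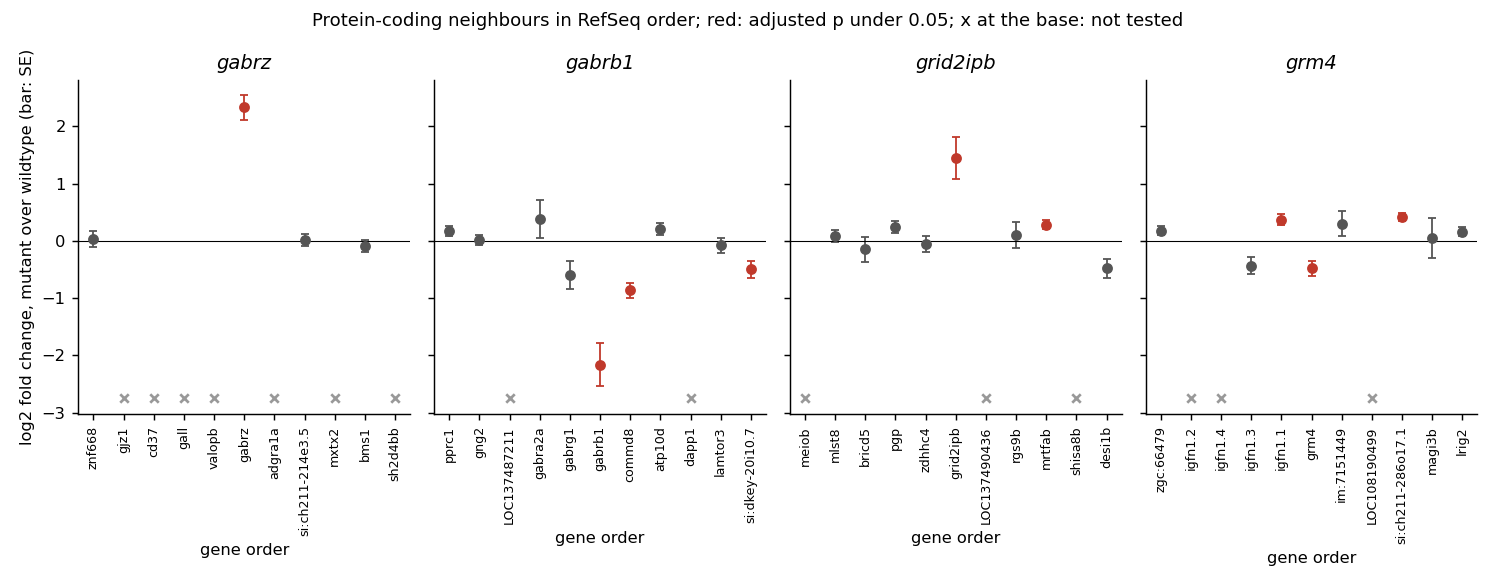
Log2 fold change of mutant over wildtype, with SE, of the 5 protein-coding genes on each side of the 4 called members in RefSeq order, with called genes in red and untested genes as crosses at the base. Among the tested neighbours of gabrz none was called, and gabrb1 has the lower genes gabrg1 (-0.59, not called) and commd8 (-0.86, called) beside it.

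The genes that make, load, clear and anchor the transmitters, and the transporters that set chloride, held 7 called rows among 88 tested. Among all tested genes 11.7% were called, 5.85% higher and 5.87% lower. Of 17 tested genes for the supply and removal of GABA and glycine, 1 was higher and 0 lower, and the median log2 fold change was -0.09. Of these, 4 had a positive log2 fold change. The list summed to 611 to 616 CPM in mutants, against 622 to 664 CPM in wildtype. The glycine transporter slc6a9 had 0.29 (adjusted p = 0.0374) on a row with non-whole counts in all 6 libraries, and of the 6 fits with a library left out only that without wildtype replicate 2 kept its call (adjusted p up to 0.18). It was also lost with DESeq2, with limma-voom and without robust weights. The GABA-synthesizing enzyme row gad2 averaged 53.9 ± 3.48 CPM in mutants and 63.0 ± 3.98 CPM in wildtype (SD, n = 3 each; -0.22, adjusted p = 0.0709). The vesicular transporter of GABA and glycine, slc32a1, had -0.18 (adjusted p = 0.195). These last 2 genes were named after their values were seen.

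Of 17 tested genes for glutamate supply and uptake, 2 were higher and 1 lower, with a median log2 fold change of -0.07. Of these, 7 had a positive log2 fold change. The list sums overlapped, at 1245 to 1269 CPM in mutants and 1214 to 1266 CPM in wildtype. The glial glutamate transporter slc1a3a averaged 135 ± 10.6 CPM in mutants and 105 ± 7.72 CPM in wildtype (SD, n = 3 each). Its log2 fold change was 0.36 (SE 0.08, edgeR adjusted p = 0.00442; 0.0522 with mutant replicate 3 left out). Its copy slc1a3b went the other way, at -0.26 (edgeR adjusted p = 0.0768), on a row with non-whole counts in 5 libraries. Every mutant library lay below every wildtype library in slc1a3b. The glutamine synthetase glulb had 0.20 (adjusted p = 0.0484) and the glutaminase glsa -0.29 (adjusted p = 0.0328). Their copies glula and glsb had -0.09 and 0.06 (edgeR adjusted p = 0.444 and 0.812). The uncalled copies slc1a3b, glula and glsb were named after their values were seen. Of the 6 fits with a library left out, 1 kept the call of glulb (adjusted p up to 0.238) and 2 that of glsa (up to 0.17). These were the fit without wildtype replicate 1 for glulb, and those without wildtype replicate 1 or 3 for glsa. The glsa call was also lost with DESeq2 and limma-voom, and the glulb call with library totals alone, with no filter, without robust weights and with the replicate block. The vesicular glutamate transporters slc17a6a and slc17a6b, named after their values were seen, had -0.07 and -0.16 and did not pass.

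Of 47 tested scaffold and auxiliary subunit genes, 0 were higher and 2 lower, with a median of -0.04. Of these, 17 had a positive log2 fold change. The list summed to 842 to 862 CPM in mutants, against 865 to 880 CPM in wildtype. The NMDA receptor scaffold dlg3 averaged 37.2 ± 1.43 CPM in mutants and 47.8 ± 1.72 CPM in wildtype (SD, n = 3 each), with a log2 fold change of -0.36 and an SE of 0.08 (edgeR adjusted p = 0.00420). The gene clptm1l, of a family that includes a GABA-A receptor trapping protein in mouse, had -0.31 (adjusted p = 0.0276). The row clptm1 of the same family, named after its values were seen, averaged 78.1 CPM in both groups and was not called (edgeR adjusted p = 0.999). The dlg3 row has non-whole counts in 5 libraries. The clptm1l call was kept in the fits without wildtype replicate 1 or 3 and lost in the other 4 fits that left out a library, as it was with DESeq2 (adjusted p up to 0.131). Of 7 tested chloride transporter genes 1 was higher and 0 lower, 6 had a positive log2 fold change, and the median was 0.17. Their summed level was 179 to 186 CPM in mutants, against 157 to 163 CPM in wildtype. This sum joins importers and exporters of chloride in whole embryos, so it gives no direction of transport in neurons. Most of it came from slc12a2 (mean 79.1 CPM in mutants, 69.3 CPM in wildtype) and slc12a7b (52.9 and 42.9 CPM). The row slc12a7b was higher (0.31, adjusted p = 0.0281), a call kept in 1 of the 6 fits with a library left out, that without wildtype replicate 1 (adjusted p up to 0.101), and lost with DESeq2. The chloride importer slc12a2, which keeps internal chloride high in young neurons, had 0.19 (adjusted p = 0.111), and the neuronal exporters slc12a5a and slc12a5b had 0.42 and 0.17 (adjusted p = 0.597 and 0.669); these 3 genes were named after their values were seen.

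Intervals put a limit on the size of change in the tested member rows, called and uncalled. For 25 of the 55 tested members the 95% interval lay within 1.5-fold in either direction, and for 43, among them the called row grm4, it lay within 2-fold. For the other 12 a 2-fold change was not excluded by the interval or had been called.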

How the data were processed

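Poly-A RNA of pooled whole embryos was sequenced, and per the submitters' processing notes STAR, RSEM and DESeq2 were used with build danRer11; versions, annotation and strand setting are not given in the sources used here. The authors deposited expected counts per gene row, not normalized between libraries, of which 18.8% are not whole (tolerance 0.005). Columns were assigned by genotype and number. After rounding, a model was fitted with edgeR 4.0.16 in R 4.3.3 (filterByExpr with minimum count 10, TMM, robust quasi-likelihood test, Benjamini-Hochberg adjustment over 20229 genes, calls at 0.05). Each SE was derived from the size of the log2 fold change and its F statistic (size over root F), and 95% intervals use it with the t quantile of the fit. Levels are CPM and not corrected for length, so a row's level is compared between groups only. Family sums are given with no p-value. Alternatives were other scalings, filters, unweighted fitting, the replicate number as a block, DESeq2 1.42.0, limma-voom (limma 3.58.1), leaving out each library, and removing or summing rows that share reads (sums whole within 0.011, at least 4 libraries non-whole). The fit was tested on simulated data. Members and lists were chosen with earlier results of these data known. Named were the called members and their copies, the member with the lowest adjusted p in families without a call (except rows not reported here), the highest and lowest fold change at 1 CPM or more, up to 4 called genes of each pathway list, and dnajc21; others are said to be chosen later, or are given by value to describe a family, a duplicate pair or a neighbourhood. List genes were matched by symbols that stand on 1 row. No sequences were used. A few member rows are not named. Figures were drawn with matplotlib 3.10.9.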

Additional observations from a re-analysis of the deposited data

How the results depend on the processing

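The calls of gabrz and gabrb1 were kept under all 17 alternatives. Members called higher numbered 1 to 2 and members called lower 1 to 4 when 1 library was left out. The 4 lower without wildtype replicate 1 were gabrb1, grm4, gabrg1 and grid2ipa; without mutant replicate 3 the lower rows included grid2ipa and not grm4. DESeq2 called 1 member lower. Over all genes, DESeq2 called 1507, and leaving out 1 library gave 1242 (without mutant replicate 2) to 2658 (without wildtype replicate 1), against 2372. Pathway genes called numbered 7, against 3 with DESeq2, 4 without rows with non-whole counts in 3 or more libraries, and 1 to 8 with 1 library left out. Marker genes called numbered 24, and 8 to 21 with 1 library left out. With 1 library left out, the log2 fold change of gabbr2 ranged from -0.27 to 0.014 and that of grm1a from -0.035 to 0.36, changing sign without wildtype replicate 2 (gabbr2) and without mutant replicate 2 (grm1a). The causes were not tested. Adding rows in capitals, chosen after seeing the data, made the alpha and NMDA sums overlap, and the log2 ratio of the group III sums was -0.20, against -0.27 without GRM7. With GABRA2 and GABRR1 (1 of many) added, the GABA-A sums without gabrz stayed lower in every mutant library. They were 80.2, 77.0 and 76.3 CPM in mutants, against 91.7, 97.9 and 84.3 CPM in wildtype. The added row GABRR1 (1 of many) was itself called lower. With gabrz kept, the GABA-A sums still overlapped. The other 105 alternative values of the family sums lay within 1 SD of the main value. With the replicate number as a block, 2470 genes and the same 4 members were called; same-numbered libraries had correlations of deviations of -0.05, -0.003 and 0.02, so the numbers give no sign of pairing. Depth limits the rows under 2 CPM most.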

Other observations

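A further 5 receptor rows are written in capitals and so fall outside the members. The row GABRR1 (1 of many) had 2.11, 1.64 and 1.40 CPM in mutants, against 3.51, 4.48 and 4.79 CPM in wildtype. The groups did not overlap, and the row was lower in mutants by the edgeR test (log2 fold change -1.31, SE 0.26, adjusted p = 0.00259) and under each of 17 alternatives. Its counts were 25, 16 and 15 in mutants and 30, 46 and 52 in wildtype, whole in every library. GRIN2B, an NMDA receptor subunit, had 12.13, 12.7 and 11.4 CPM in mutants and 11.4, 10.8 and 8.66 CPM in wildtype, and did not pass (0.24, adjusted p = 0.279). GABRA2, GRIK2 and GRM7 had log2 fold changes of 0.19, -0.18 and 0.20 and did not pass (adjusted p = 0.671, 0.784 and 0.621). These rows were looked up after the member values were known.

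The marker lists of other cell types had values in both directions, where 5.85% of all tested genes were called higher and 5.87% lower. Of 16 neural progenitor and radial glia markers 4 were higher and 1 lower, with a median log2 fold change of 0.11. Of 15 tested markers of retinal bipolar, amacrine and ganglion cells 1 was higher and 2 lower, with a median of -0.20. Of 9 tested oligodendrocyte lineage markers 1 was higher and 0 lower, and of 21 skeletal muscle markers 4 were higher and 1 lower. Their part in the receptor values was not tested.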
